A study of Mus musculus with 9 samples.

Results

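Expression of 10 regulators of mesenchymal cell fate was examined in 3 mouse fibroblast lines: the C/EBP genes Cebpa, Cebpb, Cebpd and Cebpg, the nuclear receptor gene Pparg with its target Fabp4, the RUNX genes Runx1 and Runx2, and Sox9 and Klf4. Every probeset whose single annotated gene symbol was one of these names was taken, which gave 24 probesets of 9 genes, out of 45037 probesets and 18193 genes on the array. No probeset in the annotation used here carried the symbol Runx2, so Runx2 was not analysed here. Runx1 had 6 probesets, Fabp4 had 4, Cebpg and Sox9 had 3 each, Cebpb, Cebpd and Klf4 had 2 each, and Cebpa and Pparg had 1 each. Probesets of 1 gene read the same gene and are not independent of each other.

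The control group was unmodified Balb/c-3T3 cells, an established line of mouse fibroblasts. The v-Src group was Balb/c-3T3 cells carrying the plasmid pMvSrc, which encodes the tyrosine kinase oncoprotein v-Src, an activator of STAT3. The STAT3-C group was Balb/c-3T3 cells carrying pRc/CMV-STAT3C, which encodes a constitutively active form of the transcription factor STAT3. Each line had 3 Affymetrix arrays, each of 1 ug RNA pooled from 5 dishes of 1 passage, so that p-values measure the spread between passages of 1 stable line and not between clones. In bulk RNA of this kind, fewer cells that express a gene and less of its RNA in each cell cannot be told apart. Values are log2 expression from Robust Multichip Average (RMA), with array medians of 6.27 to 6.39 and lower quartiles of 5.07 to 5.16; a level near or below that quartile is close to background, and a fold change from or to it is limited by background. Across probesets the correlation was 0.99 to 0.995 between arrays of 1 line, 0.943 to 0.948 between control and other arrays, and 0.971 to 0.977 between the transfected lines. Of 4 mouse Stat3 probesets, 2 were higher with v-Src (1426587_a_at by 1.53 and 1460700_at by 1.30) and 1 with STAT3-C (1460700_at by 0.72), where the others had 0.11 to 0.24. Neither Src probeset was higher in the v-Src cells (-0.25 and -0.11), and whether these mouse probes read the transfected genes is not known. The fibroblast markers were measured in all 3 lines, with Vim above 13 throughout. Against control, 6 of 10 were lower with v-Src and 7 of 10 with STAT3-C, where 10.4% and 10.3% of all genes were. The median log2 fold change of the 10 was -1.48 and -1.60, beside 0.02 and 0.04 over all genes. Some falls were wide, as for Thy1 (-5.17 and -5.18) and Lum (-3.165 and -3.51). S100a4 was higher in both lines (0.65 and 0.89). In STAT3-C cells 1 of the 10 markers lay below the lower quartile.

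C/EBP proteins are transcription factors with a basic region that binds DNA and a leucine zipper through which they pair. In preadipocytes, C/EBP beta and delta act early, and they induce C/EBP alpha and PPAR-gamma, which then hold each other and the fat cell genes on. C/EBP beta and delta also drive acute-phase genes downstream of interleukin-6 and STAT3. RUNX proteins pair with the subunit CBF-beta and direct blood and bone lineages, SOX9 directs cartilage, and KLF4 is a zinc finger factor of epithelial cells and of pluripotency.

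Of the 9 genes measured, 6 have a RefSeq promoter in the table used (build GRCm38.p6), in 9 windows that run from 250 bases before to 50 bases after an annotated start; Cebpd, Fabp4 and Sox9 have none there. The window of Cebpb, which was higher in both transfected lines, is shown with those of Cebpa and Pparg, which were lower, and of Runx1, whose probesets differed; where a gene has several windows, the 1 listed first is shown. Cebpb lies at chr2:167688665-167688964 (plus strand), Cebpa at chr7:35119043-35119342 (plus strand), Pparg at chr6:115360894-115361193 (plus strand) and Runx1 at chr16:92826025-92826324 (minus strand). Of the genes with no window shown, Fabp4 spans chr3:10204342-10208616, Klf4 chr4:55527137-55532475, Sox9 chr11:112782210-112787757 and Cebpd chr16:15887286-15889545. Capitals mark TGACG (the core of a cyclic AMP response element), TGTGGT (the RUNX site) and TATAAA on either strand; none of these letters overlap here.
Cebpb: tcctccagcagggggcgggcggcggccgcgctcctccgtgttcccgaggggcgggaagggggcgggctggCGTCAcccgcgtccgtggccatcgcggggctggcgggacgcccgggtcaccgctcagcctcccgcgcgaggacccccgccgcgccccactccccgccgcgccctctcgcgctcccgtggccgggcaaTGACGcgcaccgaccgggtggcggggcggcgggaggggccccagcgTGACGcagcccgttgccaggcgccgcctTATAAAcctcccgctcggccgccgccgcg
Cebpa: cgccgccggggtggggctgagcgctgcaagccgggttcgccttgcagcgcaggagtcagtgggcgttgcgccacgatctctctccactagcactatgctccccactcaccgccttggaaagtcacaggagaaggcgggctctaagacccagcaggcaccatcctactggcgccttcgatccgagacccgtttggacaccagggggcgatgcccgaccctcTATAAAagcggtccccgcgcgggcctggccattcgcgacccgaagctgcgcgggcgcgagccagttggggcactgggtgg
Pparg: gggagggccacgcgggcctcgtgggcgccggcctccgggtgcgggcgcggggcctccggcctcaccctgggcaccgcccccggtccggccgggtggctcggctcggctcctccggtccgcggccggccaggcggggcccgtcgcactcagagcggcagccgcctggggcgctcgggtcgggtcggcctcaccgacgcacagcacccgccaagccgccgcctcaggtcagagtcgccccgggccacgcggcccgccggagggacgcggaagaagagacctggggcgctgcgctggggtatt
Runx1: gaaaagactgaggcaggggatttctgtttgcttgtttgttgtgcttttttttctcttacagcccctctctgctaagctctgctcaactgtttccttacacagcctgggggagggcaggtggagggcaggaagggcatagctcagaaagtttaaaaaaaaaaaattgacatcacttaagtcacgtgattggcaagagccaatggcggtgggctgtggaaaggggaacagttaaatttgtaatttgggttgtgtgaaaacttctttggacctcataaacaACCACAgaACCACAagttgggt
The Cebpb window holds TGACG or its complement at 3 places, and TATAAA at 1. This pentamer is found in 20.8% of 32851 promoter windows and in 2 of the 9 windows of these genes (Cebpb and Klf4). The Cebpa window holds TATAAA, which 13.6% of all windows and 3 of the 9 hold, and the Pparg window shown holds none of the marked letters. The Runx1 window holds TGTGGT at 2 places on the other strand, 28 and 36 bases after the start, and 16.8% of all windows and 1 of the 9 hold it. Sites of STAT form were also searched on both strands: TTCNNNGAA, in 8.3% of all windows, and the same with 4 free bases between, in 6.95%, were in 0 of the 9, as was the C/EBP form TTGCNNAAT, in 2.4%. CCAAT, the box of the factor NF-Y, was in 5 of the 9 and in 37.4% of all. These are matches of letters within 300 bases and show no binding. The 9 windows were 40.3 to 80.7% G and C, against a median of 52.7% over all windows.

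The 3 contrasts were fitted with limma, on 6 arrays each: either transfected line against control cells, and v-Src against STAT3-C cells directly. A probeset passed at a Benjamini-Hochberg adjusted p under 0.05 over all probesets and a fold of at least 1.5, and "higher", "lower", "rose" and "fell" are used of such probesets. With v-Src, 10 of the 24 probesets passed, where 16.8% of all probesets did: 8 were higher (8.75% of all) and 2 lower (8.1% of all). With STAT3-C 8 passed, where 18.3% of all did: 6 were higher (9.68% of all) and 2 lower (8.58% of all). In the direct contrast 8 passed, where 10.3% of all did: 5 were higher in v-Src cells (4.99% of all) and 3 lower (5.33% of all). The arrays of both groups did not overlap at 16 of the 24 probesets for v-Src against control (44% of all probesets), at 11 for STAT3-C against control (43.4%) and at 11 directly (37.7%). The median log2 fold change of the 24 probesets was 0.42 with v-Src and 0.17 with STAT3-C, beside 0.03 and 0.02 over all probesets. Both comparisons with control use the same 3 control arrays, so their values are given side by side.

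**Figure D1:**
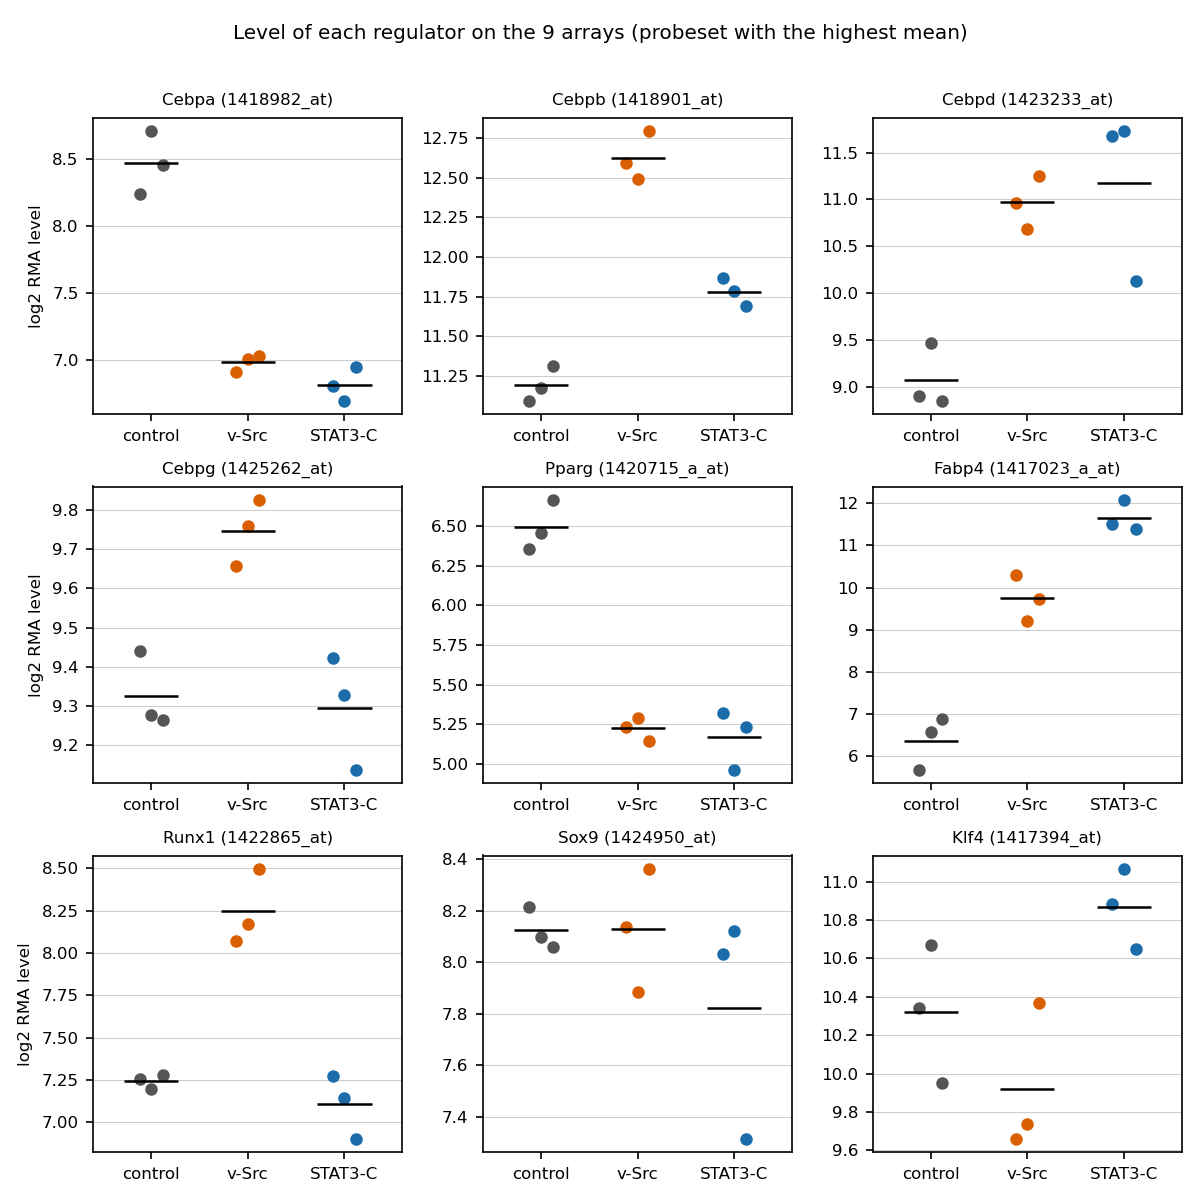
Log2 RMA level (vertical axis, with its own scale in each panel) of the 9 genes measured, each by its probeset with the highest mean; points are the 3 arrays of each line and the bar is their mean. Cebpa and Pparg lie lower and Cebpb, Cebpd and Fabp4 higher in both transfected lines, with no overlap with the control arrays, while Runx1 at this probeset is higher in the v-Src cells alone.

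Cebpb rose in both lines, further with v-Src. At probeset 1418901_at its log2 level was 11.09, 11.17 and 11.31 in the control cells, 12.60, 12.49 and 12.79 on the v-Src arrays and 11.87, 11.78 and 11.69 on the STAT3-C arrays. The 3 lines did not overlap, with the STAT3-C arrays between the others. The log2 fold change was 1.43 with v-Src (SE, the standard error, 0.11, adjusted p = 0.000117 from limma, n = 3 arrays a line) and 0.59 in STAT3-C cells (SE 0.10, adjusted p = 0.00283), a fold that only just reached the threshold. It did not reach the threshold without control replicate 1 (0.54) or 2 (0.58) or STAT3-C replicate 1 (0.55), nor after quantile normalization (0.46) or with arrays centred on their medians (0.54). The second probeset, 1427844_a_at, lay at 9.10, 9.18 and 9.38 in the control cells, 11.05, 11.26 and 11.19 on the v-Src arrays and 10.74, 10.59 and 10.34 on the STAT3-C arrays. It rose by 1.95 (SE 0.10) and 1.34 (SE 0.13, adjusted p = 0.000165), well past the threshold in both lines. In the direct comparison v-Src cells were higher by 0.85 at the first probeset (SE 0.10, adjusted p = 0.00189) and by 0.61 at the second (adjusted p = 0.0109); the second did not reach the fold of 1.5 without v-Src replicate 5 (0.56) or STAT3-C replicate 3 (0.51).

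Cebpd, the partner of Cebpb in early adipogenesis and in the acute-phase response, also rose in both lines. Probeset 1423233_at lay at 8.90, 9.47 and 8.85 in the control cells, 10.97, 10.69 and 11.25 on the v-Src arrays and 11.68, 11.73 and 10.13 on the STAT3-C arrays. The control arrays lay below all others, and STAT3-C replicate 3 lay apart from its line, below the v-Src arrays. The rise was 1.89 with v-Src (SE 0.20, adjusted p = 0.000585) and 2.11 with STAT3-C (SE 0.40, adjusted p = 0.00527); without STAT3-C replicate 3 the latter was 2.63. The lines were not told apart directly (-0.21, 95% interval -1.17 to 0.75, adjusted p = 0.757), but without that array v-Src cells were lower by 0.74 and passed (adjusted p = 0.0312). The second probeset, 1456605_at, lay at 6.70, 6.98 and 6.64 on the control arrays, 7.99, 7.63 and 7.56 on the v-Src arrays and 7.33, 7.41 and 7.42 on the STAT3-C arrays, again with the control arrays lowest. Here Cebpd rose by 0.95 with v-Src (SE 0.14) and by 0.61 with STAT3-C (SE 0.11, adjusted p = 0.00387). The latter, a fold of 1.53, did not reach 1.5 without control replicate 1 (0.58) or 3 (0.55) or with arrays centred on their medians (0.57).

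Cebpa, which encodes the C/EBP of mature fat, liver and myeloid cells, fell in both lines. Its 1 probeset, 1418982_at, lay at 8.24, 8.71 and 8.46 in the control cells, 6.91, 7.01 and 7.03 on the v-Src arrays and 6.81, 6.69 and 6.94 on the STAT3-C arrays. Every control array was above every other array. The fall was -1.49 in v-Src cells (SE 0.12, adjusted p = 0.000199), a fold of 2.81, and -1.66 in STAT3-C cells (SE 0.14, adjusted p = 7.44e-05), a fold of 3.16. The direct difference of 0.17 did not pass (95% interval -0.04 to 0.38, adjusted p = 0.235). Cebpg, a widely expressed family member that lacks an activation domain and lies 62.7 kb from Cebpa on chromosome 7, did not pass against control at any of 3 probesets. Probeset 1425262_at lay at 9.44, 9.28 and 9.26 in the control cells, 9.66, 9.76 and 9.83 on the v-Src arrays and 9.42, 9.33 and 9.14 on the STAT3-C arrays, with the v-Src arrays above the others. Its log2 fold change was 0.42 with v-Src (SE 0.09, adjusted p = 0.00998), under the fold threshold, and -0.03 with STAT3-C (95% interval -0.28 to 0.22). Probeset 1451639_at lay at 8.64, 8.51 and 8.67, at 8.94, 9.16 and 8.99, and at 8.32, 8.33 and 8.67 in the same order of lines, again with the v-Src arrays on top. Its fold changes were 0.42 and -0.17, and v-Src cells were higher than STAT3-C cells by 0.59 (adjusted p = 0.0138), a fold of 1.51 that did not pass without v-Src replicate 5, STAT3-C replicate 1 or STAT3-C replicate 2 (0.53 in each case) or with arrays centred on their medians (0.57). At 1425261_at the lines differed by 0.33, not past the test.

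**Figure D2:**
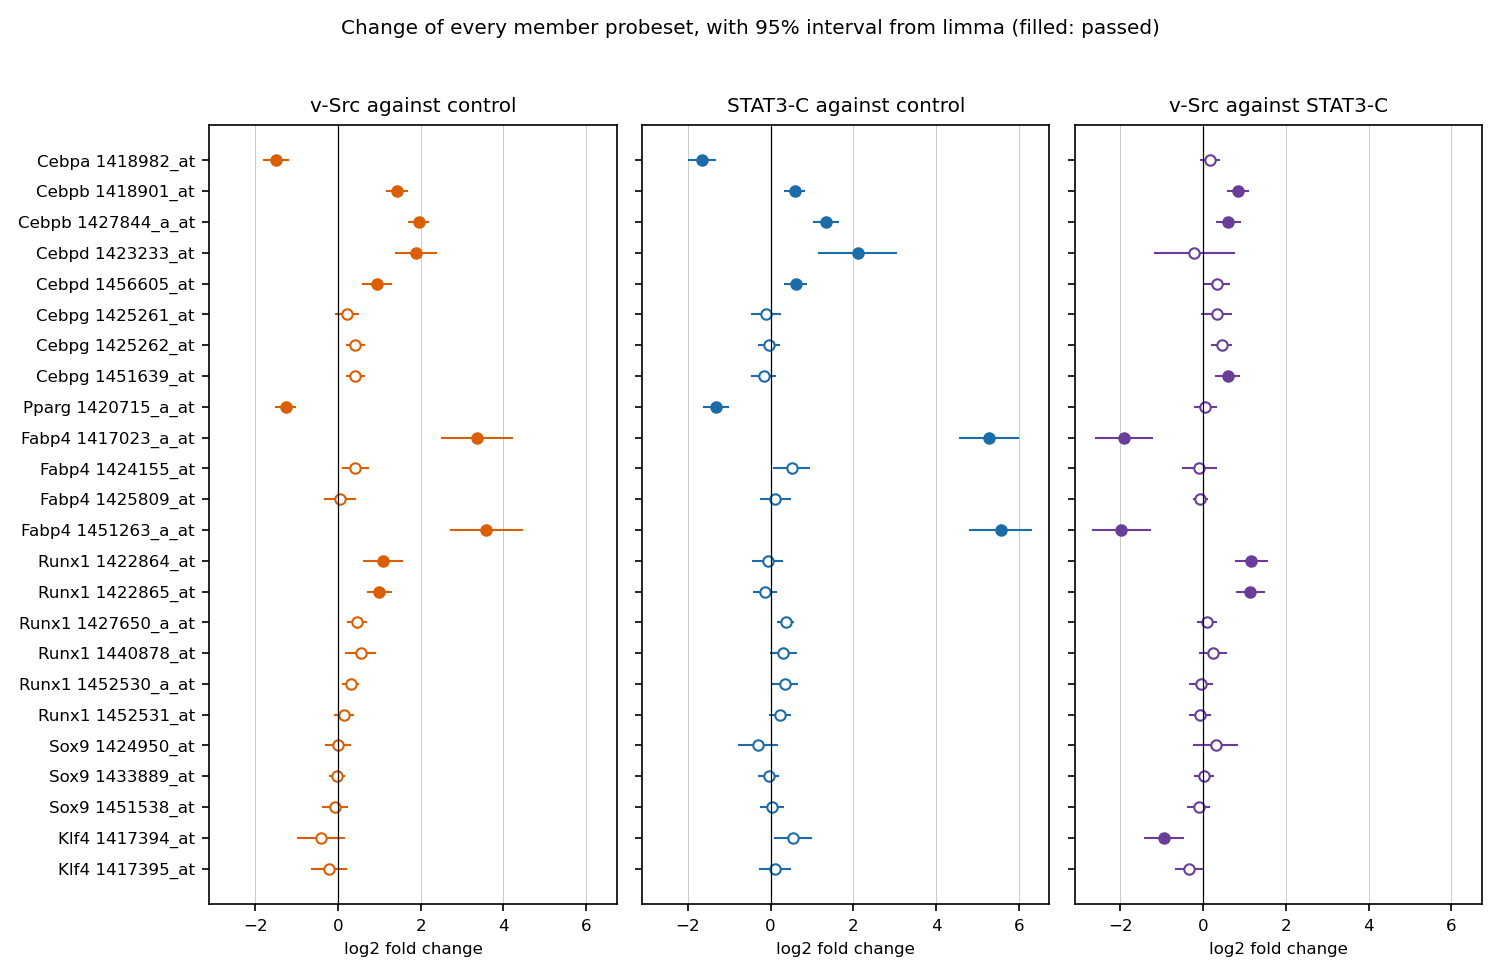
Log2 fold change of the 24 probesets (rows) in the 3 comparisons (panels, on 1 horizontal scale), with its 95% interval from limma; filled points passed the test. Probesets of Fabp4 lie furthest from 0, at 3.37 and 3.59 with v-Src and at 5.28 and 5.56 with STAT3-C, while the other 2 Fabp4 probesets and all Sox9 probesets lie near 0.

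The other genes for factors of this family or its partners gave mixed directions. Of 8 such genes measured of 10 listed, 2 were higher and 2 lower in each transfected line, beside 9.54% higher and 10.4% lower of all genes (by 1 probeset a gene) in v-Src cells and 11.9% and 10.3% in STAT3-C cells. Nfil3, a repressor of the bZIP class, rose by 1.96 with v-Src (SE 0.16) and by 1.24 with STAT3-C (SE 0.19). Atf4, the stress factor that pairs with C/EBP proteins, rose by 0.81 with v-Src and not with STAT3-C (0.01), and the direct difference of 0.80 passed (adjusted p = 0.0131). Averaged over its probesets, Atf4 did not pass (0.18 and 0.30). Dbp, a clock-driven factor, rose by 0.65 with STAT3-C, while with v-Src its brightest probeset did not pass (0.70) and the other did (0.64). The STAT3-C call was lost without control replicate 1 or 3 or STAT3-C replicate 1 or 2 (0.55 to 0.60), and the v-Src value passed without v-Src replicate 5 (0.95). The related factors Tef and Hlf were not counted as changed, but Tef was higher with v-Src at 2 of 3 probesets (0.67 and 1.26) and with STAT3-C at 1 (0.99), and Hlf was lower with v-Src at 1 of 2 (-2.04). Ddit3, or CHOP, which pairs with C/EBP proteins and keeps them from their usual sites, fell in both lines (-1.44 and -2.13, at 1 of 2 probesets); the direct difference of 0.70 passed (adjusted p = 0.0417), but was lost whichever of the 6 arrays was left out (0.46 to 0.82). Atf3, a stress-induced repressor, fell as well (-1.45 in each).

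Of genes listed as C/EBP targets or acute-phase genes, most changed, and the list was chosen with earlier results of these data known. Whether C/EBP factors or STAT3 act on these genes here was not tested. Among 14 listed, all measured, v-Src cells had 9 higher and 3 lower (Ccl2, Ptx3 and Saa3), and STAT3-C cells had 7 higher and 2 lower (Ccl2 and Saa3). The share changed was 85.7% and 64.3%, where 19.9% and 22.2% of all genes changed. Among those higher with STAT3-C, Lcn2 (1.56) lost its call without control replicate 1 or 2 or STAT3-C replicate 1 or 2 (0.99 to 1.77). It also lost it with median centring (1.51). Lbp, which carries lipopolysaccharide, rose by 5.84 and 4.89, and Hp (haptoglobin) by 5.77 (SE 0.18, adjusted p = 3.6e-06) and 3.34 (SE 0.44). The other Lbp probeset had 0.73, which passed, and 0.19, which did not. Socs3, the feedback inhibitor of STAT3 signalling, rose by 3.63 and 1.43. Serpina3n, an acute-phase protease inhibitor, rose by 4.86 in v-Src cells, and its 0.49 in STAT3-C cells was under the fold threshold, which it passed without control replicate 2 (0.63) or STAT3-C replicate 3 (0.59). Il1rn, the interleukin-1 receptor antagonist, rose by 1.22 and 1.97. Ccl2, a chemokine for monocytes that is high in the control cells (12.93), fell (-3.00 and -1.67), and so did Saa3, an acute-phase amyloid protein (-2.26 and -2.61). Directly, 4 were higher in v-Src cells (Hp, Ptges, Serpina3n and Socs3) and 3 lower (Ccl2, Il1rn and Ptx3), where 4.84% of all genes were higher and 6.83% lower. That of Hp was lost without v-Src replicate 1 (2.27), and that of Ccl2 without v-Src replicate 6 or any STAT3-C array (-1.46 to -1.26). With STAT3-C, another probeset of Ptx3 was higher (1.355) and another of Ptges lower (-0.62), against the direction of the brightest. With v-Src that Ptx3 probeset had 0.54, which did not pass, against -1.90 at the brightest. The median log2 fold change of the list was 1.73 with v-Src and 0.89 with STAT3-C, beside 0.02 and 0.04 over all genes.

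Pparg, which encodes the nuclear receptor that directs fat cell formation and is the target of the thiazolidinedione drugs, fell in both lines. Its 1 probeset, 1420715_a_at, lay at 6.35, 6.45 and 6.66 in the control cells, 5.24, 5.29 and 5.15 on the v-Src arrays and 5.32, 4.96 and 5.23 on the STAT3-C arrays. The transfected lines lay below every control array, close to the lower quartile of the arrays. The fall was -1.26 with v-Src (SE 0.10, adjusted p = 0.000157) and -1.32 with STAT3-C (SE 0.13, adjusted p = 0.000179), in folds 2.40 and 2.49, and is limited by background. The direct difference was 0.05 (95% interval -0.20 to 0.31, adjusted p = 0.776).

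Fabp4, which encodes the fatty acid binding protein aP2 of fat cells and macrophages and is a textbook target of PPAR-gamma, moved the other way and had the widest change of the 9 genes. At 1417023_a_at it lay at 5.68, 6.57 and 6.87 in the control cells, 10.29, 9.21 and 9.72 on the v-Src arrays and 11.51, 12.07 and 11.38 on the STAT3-C arrays. The 3 lines did not overlap, with the STAT3-C arrays at the top. Fabp4 was 10.3-fold higher with v-Src (log2 fold change 3.37, SE 0.36, adjusted p = 0.000594) and 38.8-fold higher with STAT3-C (5.28, SE 0.30, adjusted p = 1.5e-05). At 1451263_a_at the control arrays lay at 5.17, 6.41 and 6.06, the v-Src arrays at 9.97, 8.91 and 9.53, and the STAT3-C arrays at 11.41, 11.86 and 11.05. The rise there was 3.59 and 5.56, and v-Src cells were lower than STAT3-C cells by 1.97 (SE 0.29, adjusted p = 0.00413), as at the first probeset (-1.91, adjusted p = 0.00431). The remaining Fabp4 probesets did not pass: 1424155_at, at 4.64 in the control cells, had 0.42 and 0.51, and 1425809_at had 0.05 and 0.12. The v-Src value of 1424155_at passed with no fold threshold (adjusted p = 0.0452), and its STAT3-C value passed without control replicate 2 (0.63) or STAT3-C replicate 1 (0.68).

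Other target genes of PPAR-gamma and genes of fat cells did not follow 1 direction. Their list also holds Cebpa, a member reported above, which counts among the lower genes in both lines. Of 20 measured of 25 listed, 3 were higher (Plin2, Scd1 and Agpat2) and 3 lower (Angptl4, Cebpa and Fabp5) with v-Src. With STAT3-C 2 were higher (Agpat2 and Fabp5) and 3 lower (Angptl4, Cebpa and Lpl). The share changed was 30% and 25%, beside 19.9% and 22.2% of all genes. Agpat2, an enzyme of triglyceride synthesis, rose by 1.46 (SE 0.09) and 1.91 (SE 0.12). Plin2, a coat protein of lipid droplets, rose by 1.75 in v-Src cells, against 0.54 in STAT3-C cells, which passed without control replicate 2 (0.71) or STAT3-C replicate 3 (0.69); they differed directly by 1.21 (adjusted p = 0.00515). Scd1, which desaturates fatty acids, rose by 1.34 with v-Src, a call lost without v-Src replicate 1 or 6 or control replicate 1 or 2 (1.01 to 1.43). With STAT3-C its brightest probeset did not pass (0.68) and the other did (1.203).

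Angptl4, a secreted inhibitor of lipoprotein lipase, fell in both lines (-2.45, SE 0.36, and -3.47, SE 0.23), at 1 of 2 probesets. Lpl, the lipase itself, had -1.03 with STAT3-C, which passed, and -0.97 with v-Src, which did not. Its other probeset passed in both lines (-1.81 with STAT3-C and -1.28 with v-Src). At the brightest probeset the STAT3-C call was lost without control replicate 2 or 3 or any STAT3-C array (-1.10 to -0.82), and the v-Src value passed without control replicate 1 (-1.40). Fabp5, the fatty acid binding protein of skin, fell by 0.61 with v-Src and rose by 1.65 with STAT3-C, with a direct difference of -2.26 (SE 0.10, adjusted p = 8.81e-05), negative like that of Fabp4. Its fall with v-Src was lost without v-Src replicate 1 or 6 or control replicate 1 or 3 (-0.62 to -0.46). Of the defining markers of mature fat cells, Adipoq, Cidec, Lep and Retn were measured and none passed in either line; Adipoq (adiponectin) lay at 3.99, 3.97 and 4.31 in control, v-Src and STAT3-C cells and Cidec at 4.11 and 4.36 in control and STAT3-C cells and lower still in v-Src cells, all below the lower quartile of the arrays. Lep (leptin) lay at 5.24, 5.50 and 5.61, and Retn (resistin) at 7.09, 7.26 and 7.34, above the array medians.

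Fabp4 is also made by macrophages and endothelial cells. Of 7 macrophage markers, Lyz2 was higher with v-Src (0.86), and Lyz2 (1.95) and Cd68 (1.14) were higher with STAT3-C. The mean log2 level of the 7 was 5.64 to 5.83 in the control arrays, 5.80 to 6.03 with v-Src and 6.17 to 6.30 with STAT3-C. Ptprc (3.99, 4.10 and 4.36 in control, v-Src and STAT3-C cells), Itgam (4.44, 4.34 and 4.54) and Aif1 (4.53, 4.45 and 4.56) lay below the lower quartile in every line. The other macrophage markers, Csf1r and Adgre1 among them, lay above it in every line. None of 5 endothelial markers passed against control (mean level 4.99 to 5.14, 5.17 to 5.41 and 5.15 to 5.24), and Pecam1 lay at 4.58, 4.59 and 4.84. In each line 3 of the 5 lay below the lower quartile, Pecam1 among them, and the rest above it. The part of such cells in the Fabp4 result was not tested. None of 6 epithelial markers passed against control either.

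**Figure D3:**
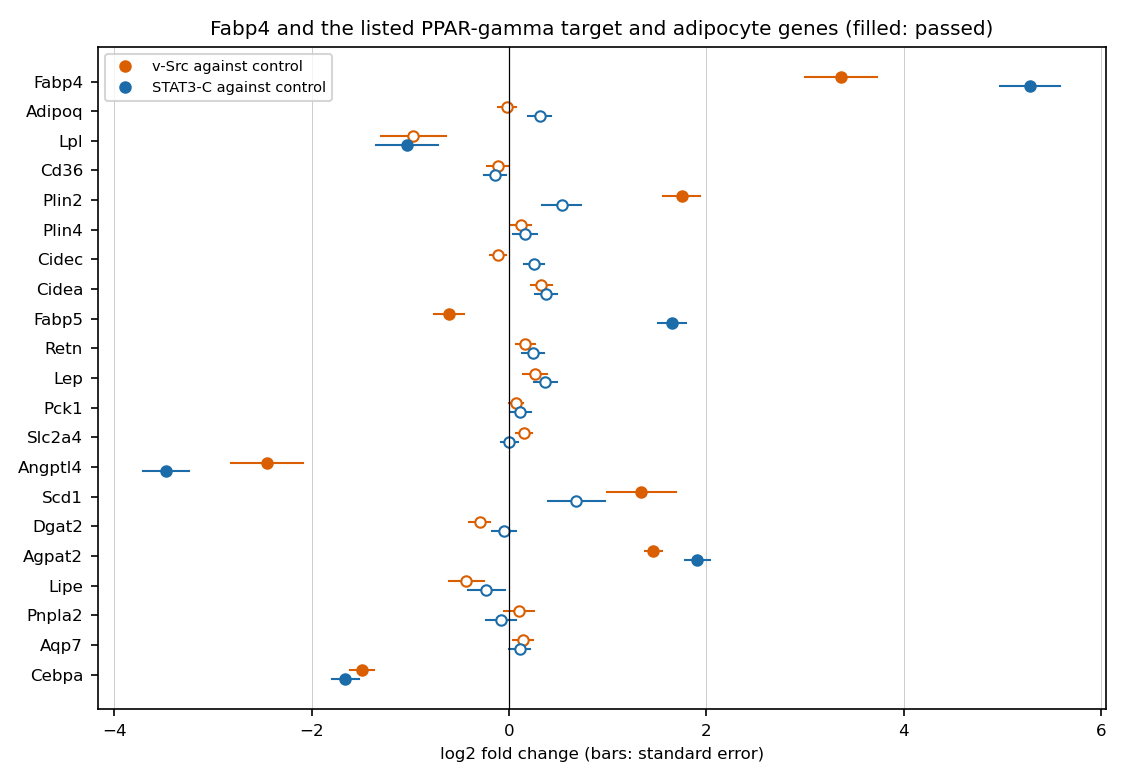
Log2 fold change against control cells, with its standard error, of Fabp4 and of the 20 measured genes listed as PPAR-gamma target or fat cell genes, in v-Src (orange) and STAT3-C (blue) cells; filled points passed the test. Fabp4 lies apart at 3.37 and 5.28, Angptl4 lies lowest at -2.45 and -3.47, and most of the others lie near 0.

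Regulators of fat cell formation other than the members were also of both directions: of 24 measured of 26 listed, v-Src cells had 4 higher and 3 lower, and STAT3-C cells 3 of each, a share of 29.2% and 25% beside 19.9% and 22.2% of all genes. Stat5a, a STAT factor that promotes fat cell formation, rose by 2.34 in v-Src cells (SE 0.09, adjusted p = 8.57e-06) and 1.19 in STAT3-C cells (SE 0.16), which differed by 1.15 (adjusted p = 0.00255). Stat5b rose by 0.81 with v-Src, at 1 of 2 probesets. Ppargc1a and Ppargc1b, which encode coactivators of PPAR-gamma, rose in both lines (1.19 and 1.01 in v-Src cells, 1.36 and 0.65 in STAT3-C cells), Ppargc1a from a control level near background (4.94). The STAT3-C call of Ppargc1b was lost without control replicate 3 or STAT3-C replicate 1 (0.54 in each case).

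Dlk1, a surface protein of preadipocytes that holds back their differentiation, fell in both lines (-2.94, SE 0.20, and -3.17, SE 0.20), at 1 of 2 probesets. Ebf1, a factor that acts early in fat cell formation, was lower at 4 of 5 probesets in each line. Its brightest probeset fell (-1.92 and -2.01) to levels near background (4.82 and 4.73). The widest fall among its probesets was -3.64 with v-Src and -3.72 with STAT3-C. The study had chosen Ebf1 on these arrays, so that it is not independent evidence. Ncoa2, a coactivator of nuclear receptors, fell by 0.68 with v-Src, and Srebf1, a factor of lipid synthesis, fell by 0.59 with STAT3-C, at the fold threshold. The call of Ncoa2 was lost when its probesets were averaged (-0.24), and that of Srebf1 without control replicate 2 or STAT3-C replicate 1 (-0.52 in each case) and after quantile normalization (-0.58). Directly, Ppard, a relative of Pparg, (0.64), Srebf1 (0.62) and Stat5a were higher in v-Src cells. The direct call of Ppard was lost without v-Src replicate 1 or 6 or any STAT3-C array (0.48 to 0.65), and that of Srebf1 without STAT3-C replicate 1 (0.55). Nr2f2, a nuclear receptor that holds back fat cell formation, was not counted as changed, but 3 of its 6 probesets were higher with STAT3-C (0.89 to 1.202), and 3 of 7 probesets of Med1, the mediator subunit that PPAR-gamma binds, were higher with v-Src (0.62 to 1.15).

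Runx1, a factor of blood stem cells that is also expressed in mesenchyme, rose with v-Src at 2 of its 6 probesets. At 1422865_at it lay at 7.25, 7.19 and 7.28 in the control cells, 8.07, 8.17 and 8.50 on the v-Src arrays and 7.27, 7.14 and 6.90 on the STAT3-C arrays. The v-Src arrays lay above all others, and the STAT3-C arrays overlapped the control arrays. The log2 fold change was 1.01 with v-Src (SE 0.12, adjusted p = 0.000844) and -0.14 with STAT3-C (95% interval -0.39 to 0.12). Probeset 1422864_at lay at 7.04, 6.77 and 7.35 in the control cells, 7.83, 8.14 and 8.47 on the v-Src arrays and 7.13, 6.96 and 6.86 on the STAT3-C arrays, in the same pattern, and its log2 fold changes were 1.096 (adjusted p = 0.00578) and -0.07. Directly, v-Src cells were higher than STAT3-C cells by 1.14 (SE 0.14, adjusted p = 0.00215) and 1.17 (SE 0.16, adjusted p = 0.00327).

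The other 4 Runx1 probesets gave another picture. None passed in any comparison, with log2 fold changes of 0.14 to 0.55 with v-Src and 0.23 to 0.37 with STAT3-C, and the transfected lines differed by at most 0.24. At 1427650_a_at all arrays of both transfected lines lay above those of the control cells, by 0.47 (adjusted p = 0.00927) and 0.37 (adjusted p = 0.011), under the fold threshold. At 1440878_at the value with v-Src, 0.55, was 0.63 without v-Src replicate 5 and 0.62 without control replicate 1, and passed in those cases. The difference between the lines rests on 1422864_at and 1422865_at, which the annotation lists under 1 transcript record; which Runx1 transcripts each probeset reads was not analysed here.

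**Figure D4:**
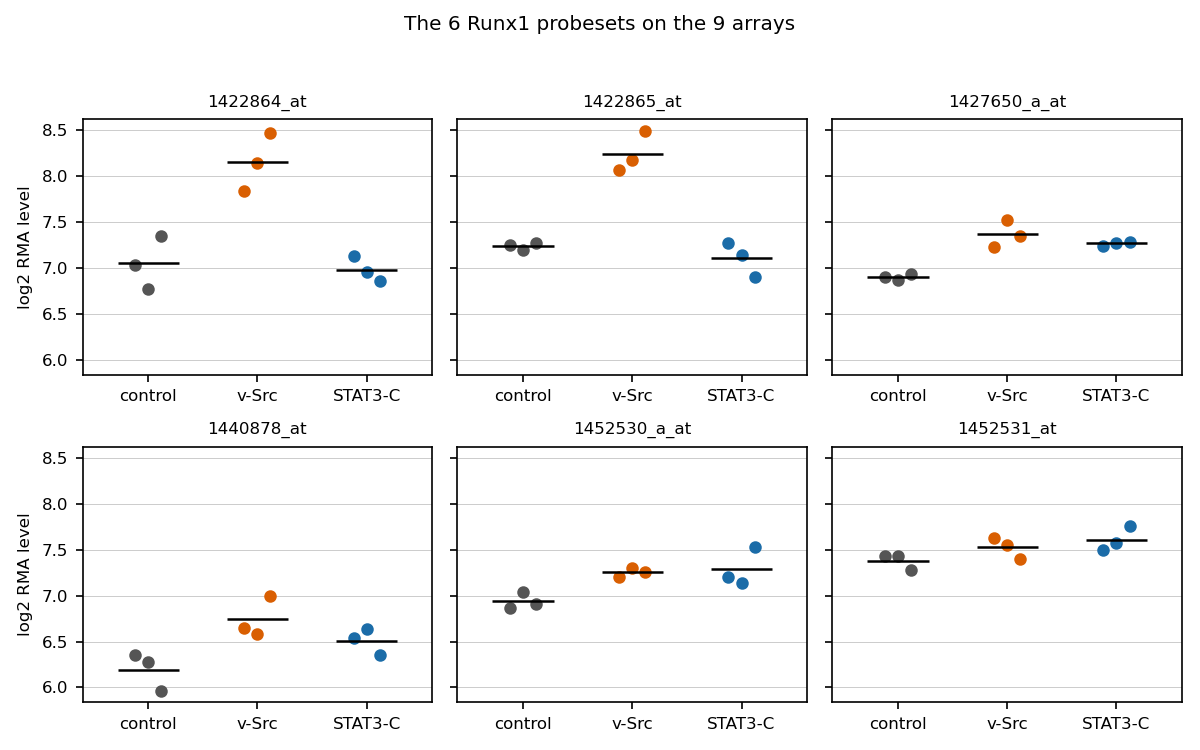
Log2 RMA level of the 6 Runx1 probesets (panels, on 1 scale) on the 9 arrays; points are the 3 arrays of each line and the bar is their mean. At 1422864_at and 1422865_at the v-Src arrays lie above both other lines, while at the other probesets the transfected lines lie close together.

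Of 23 genes of RUNX partners and of bone cells measured of 26 listed, v-Src cells had 1 higher and 5 lower, and STAT3-C cells 0 and 4. The share changed was 26.1% and 17.4%, beside 19.9% and 22.2% of all genes. Cbfb, which encodes the common partner CBF-beta, fell in both lines (-1.02, SE 0.12, adjusted p = 0.000837, and -1.37, SE 0.11). Runx1t1, a corepressor gene known from its fusion with RUNX1 in leukemia, fell (-2.88 and -3.45) at 5 of 6 probesets in each line. Mmp13, a collagenase that RUNX2 activates in bone, fell (-3.87 and -4.07) to levels of 3.68 and 3.49 that are at background. Col1a1, the main collagen of bone and of fibroblasts, fell as well (-1.34 and -1.86).

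Vdr, the vitamin D receptor, fell by 0.96 with v-Src, with a direct difference of -0.67. Phex, a peptidase of bone cells, rose by 2.36 in v-Src cells (SE 0.53, adjusted p = 0.0144), against -0.34 in STAT3-C cells, which did not pass; they differed by 2.70 (adjusted p = 0.0042). Its rise was lost without v-Src replicate 1 (2.24) or 6 (1.99), and its STAT3-C value passed without control replicate 2 (-0.81). Not counted as changed, but with 1 of 2 probesets past the test, were the corepressor gene Tle1 (0.91 with v-Src and -0.66 with STAT3-C), Tnfrsf11b (osteoprotegerin, 0.82 with v-Src) and the homeobox gene Msx1 (0.82 with STAT3-C). The defining bone cell markers Sp7, Ibsp, Dmp1 and Alpl did not pass in either line, and Dmp1 lay between 3.68 and 3.72 in all 3.

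Sox9, the master regulator of cartilage, did not pass in any comparison at any of 3 probesets. At 1424950_at it lay at 8.21, 8.10 and 8.06 in the control cells, 8.14, 7.88 and 8.36 on the v-Src arrays and 8.03, 8.12 and 7.31 on the STAT3-C arrays. The lines overlapped, and STAT3-C replicate 3 lay below all others. The log2 fold change was 0.00 with v-Src (95% interval -0.30 to 0.30) and -0.30 with STAT3-C (95% interval -0.76 to 0.16); the other probesets were between -0.07 and 0.04. Of 20 cartilage genes and SOX9 partners, all measured, 2 were higher and 0 lower in each line, a share of 10% in each. Of all genes, 19.9% changed with v-Src (9.54% higher) and 22.2% with STAT3-C (11.9% higher). Col11a1, a collagen of cartilage fibrils, rose by 2.14 (SE 0.22) and 2.57 (SE 0.24). Prg4 (lubricin) rose by 1.62 with v-Src and differed directly by 1.36; the rise was lost without v-Src replicate 1 (1.40) or 6 (1.70), and the difference without those or STAT3-C replicate 1 (1.15 to 1.54). Col9a3, a collagen chain of cartilage, had 0.61 with STAT3-C and passed at 1 of 3 probesets. It did not pass without STAT3-C replicate 3 (0.55), after quantile normalization (0.58), with arrays centred on their medians (0.57) or averaged over its probesets (0.38). None of the cartilage markers Acan, Col2a1, Col9a1, Comp and Matn1 passed.

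Klf4 did not pass against control in either line, while the lines differed from each other at 1 of 2 probesets. At 1417394_at it lay at 10.34, 10.67 and 9.95 in the control cells, 9.66, 9.74 and 10.37 on the v-Src arrays and 10.89, 11.07 and 10.65 on the STAT3-C arrays. The STAT3-C arrays lay above the v-Src arrays, and both overlapped the control arrays. The log2 fold change was -0.40 with v-Src (adjusted p = 0.258) and 0.55 with STAT3-C (adjusted p = 0.0616), and the latter was 0.72 and passed without control replicate 2. Directly, v-Src cells were lower by 0.95 (SE 0.20, adjusted p = 0.0159); this did not pass without v-Src replicate 1 (-0.82), STAT3-C replicate 1 (-0.94) or STAT3-C replicate 2 (-0.85). At 1417395_at the difference was -0.34 (adjusted p = 0.136).

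Among 15 other KLF genes measured of 16 listed, v-Src cells had 3 higher and 2 lower, and STAT3-C cells 1 of each, a share of 33.3% and 13.3% beside 19.9% and 22.2% of all genes. Klf5, a factor of early adipogenesis that C/EBP beta and delta induce, rose by 1.38 in v-Src cells (SE 0.14, adjusted p = 0.000433) at 1 of 3 probesets, against -0.02 in STAT3-C cells, a gap of 1.39 (adjusted p = 0.00267). Klf9, a factor induced by glucocorticoids, rose by 1.16 in v-Src cells (3 of 7 probesets), against -0.03 in STAT3-C cells, where 1 other probeset of it was higher (0.60). Klf3, a repressor, fell by 1.21 with v-Src, also at 3 of 7 probesets, and had -0.44 with STAT3-C, which passed without STAT3-C replicate 2 (-0.62). Averaged over their probesets, Klf9 (0.50) and Klf3 (-0.47) were under the fold threshold with v-Src. Klf2, a factor of endothelium that represses Pparg, rose by 0.77 and 0.81, and Klf16 fell (-0.83 and -0.79). The v-Src call of Klf2 was lost without v-Src replicate 1 or 6 or control replicate 1 or 3 (0.55 to 0.87), after quantile normalization (0.70) and with median centring (0.70), and its STAT3-C call without control replicate 1 (0.59) or STAT3-C replicate 1 (0.87) or 2 (0.64). Klf12 was not counted as changed, but 2 of its 5 probesets were lower in both lines (-1.05 and -1.21 with v-Src, -1.02 and -1.27 with STAT3-C), and 1 of 3 probesets of Klf13 was higher in both (0.77 and 0.81).

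**Figure D5:**
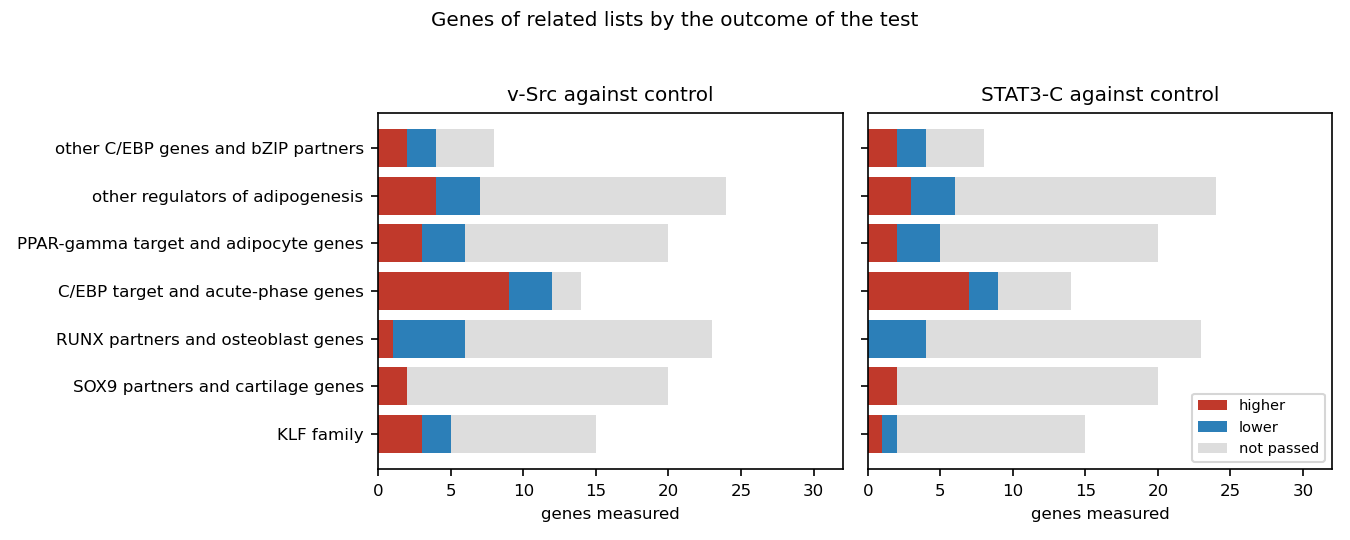
Number of genes measured in each list of related genes (rows) that were higher (red), lower (blue) or did not pass (grey) against control cells, by 1 probeset a gene, with v-Src (left) and STAT3-C (right). Among C/EBP target and acute-phase genes 12 of 14 and 9 of 14 changed, and among cartilage genes 2 of 20 in each line. Of all genes, 19.9% and 22.2% changed.

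For each member that changed, the gene with the most similar profile was sought among the other 18192 genes, as the root mean square difference of the log2 levels over the 9 arrays after each was centred on its mean. The nearest was Marcks for Cebpa (0.11), Slc25a37 for Cebpb (0.08), Mgat5 for Cebpd (0.19), Angel2 for Pparg (0.10), Ttc14 for Runx1 (0.11) and Vasn for Klf4 (0.18). For Fabp4 it was Msln, which encodes mesothelin, at a wider distance of 0.50; Msln had log2 fold changes of 3.73 with v-Src and 4.93 with STAT3-C. The arrays fall into 3 lines, so such likeness rests on 3 levels and is given as a description.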

How the data were processed

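Total RNA of control, v-Src and STAT3-C Balb/c-3T3 cells was hybridized by the authors to Affymetrix whole-genome mouse arrays, 3 a line. The deposited table holds log2 expression, 1 column an array, which the authors computed with RMA (version not given in the sources used here). The methods normalize the control arrays once with each transfected line, and the table does not say which run its control columns come from; if the transfected lines come from separate runs, run and line cannot be told apart in the direct comparison. Precision is set by the number of arrays: with 3 a side, the smallest p an exact two-sided permutation can reach is 0.1, so limma was used.

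The 64 control probesets were left out and 45037 tested, with no filter on level, in R 4.3.3 with limma 3.58.1 (lmFit, eBayes; standard errors and 95% intervals from the moderated variance). A single symbol was annotated for 34945 of them, several for 932 and none for 9160, and RefSeq (GRCm38.p6) held the gene numbers of 34741. Of 137 list entries 124 were measured, each by its brightest probeset (mean of 9 arrays). Of 49 list and marker genes changed with v-Src and 41 with STAT3-C, 15 and 10 had another probeset that did not pass. In 0 of them did probesets pass in opposite directions. Probesets that did not pass could have the other sign, as for Ptx3 with v-Src (-1.90 and 0.54). Of list genes not counted as changed, 11 with v-Src, 14 with STAT3-C and 12 directly had another probeset that passed; those named in the text were chosen after their values were seen. Every member probeset is named, and of each list up to 4 genes with the largest change and those behind a count of 5 or fewer. Markers of other cell types are named besides, and Lcn2 for its unstable call. The members and lists were chosen with earlier results of these data known. Alternatives were all 9 arrays in 1 fit, quantile normalization, median centring, a filter on level, other thresholds and SAM. Further ones were eBayes with trend and robust, each array left out and the array number as a block. SAM was coded here over the 20 groupings of 6 arrays with q under 0.05, and is not the add-in that the authors ran. The tests were tried on simulated data. Figures were drawn with matplotlib 3.10.9.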

Additional observations from a re-analysis of the deposited data

Results flagged for a closer look

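The changes of the transfected lines differed from each other, by the direct limma test of v-Src against STAT3-C cells, at 8 of 24 member probesets. Of all probesets, 10.3% passed this test. The difference was 0.85 at Cebpb 1418901_at and 0.61 at Cebpb 1427844_a_at, where both lines were above the control cells and v-Src cells further. It was 0.59 at Cebpg 1451639_at. It was -1.91 at Fabp4 1417023_a_at and -1.97 at Fabp4 1451263_a_at, where both lines were above the control cells and STAT3-C cells further. It was 1.17 at Runx1 1422864_at and 1.14 at Runx1 1422865_at, which rose with v-Src, and -0.95 at Klf4 1417394_at. The calls at Cebpb 1427844_a_at, Cebpg 1451639_at and Klf4 1417394_at were each lost without 1 array or another. Each line is 1 stable line, so the transfected gene and the line cannot be told apart.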

How the results depend on the processing

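Of 72 member values (24 probesets in 3 comparisons), 54 had the same call under every alternative that tested them. The other 18 had another call under 1 or more. A probeset removed by the filter on level was not counted as a lost call. Pparg, which lies below the median level, was removed by it. With that filter 9 member probesets changed with v-Src (1 lower) and 7 with STAT3-C (1 lower), in place of 10 and 8. The share of all probesets above the median level that passed is not given here, so these counts show only which member calls were kept. No value that passed changed sign. A change of sign where the value passed in neither setting was seen 26 times, counted over all values and alternatives. Leaving out each array in turn gave 10 to 11 changed member probesets for v-Src against control (10 with all arrays), 6 to 9 for STAT3-C against control (8) and 6 to 8 for v-Src against STAT3-C (8). With no fold threshold 16 member probesets changed with v-Src, where 28.4% of all probesets did. In the direct comparison 4 changed with a fold of at least 2 (3.32% of all) and 5 at an adjusted p under 0.01 (7.09% of all). For cartilage genes with STAT3-C the count of changed genes was 1 after quantile normalization, with median centring and with all probesets of a gene averaged, in place of 2 (Col9a3 was lost), and in the direct comparison it was 2 with that average in place of 1. For KLF genes that average gave 3 with v-Src in place of 5, and 1 in the direct comparison in place of 2. Of 42, 32 and 19 list genes that changed with v-Src, with STAT3-C and directly, 5, 7 and 6 lost the call without 1 array or another, an alternative chosen after seeing the data. SAM as coded here gave the same counts of member probesets as limma: 10, 8 and 8. The authors describe no SAM between the transfected lines. The array numbers are shared in full only by the control and STAT3-C arrays (v-Src arrays share number 1 alone, so no block was fitted for them). Deviations of control and STAT3-C arrays from their line means correlated at -0.09, 0.06 and 0.04 for the same numbers. For different numbers the range was -0.11 to 0.07. No sign of pairing by number was seen, which does not show that the samples are unpaired. With the array number as a replicate block 8 member probesets changed, as without it. Signal near background limits Pparg, Mmp13 and the lower Fabp4 probesets.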
